A study of Sus scrofa with 32 samples.

Results

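The genes ACSS2, FASN, SCD and ACSL1, which act in fatty acid synthesis and activation, were followed through the loin muscle of 4 breed groups of pigs. They were taken by symbol, whatever their values, and are 4 of the 17930 genes listed in the series and 4 of the 12821 genes with enough reads to be tested. Fatty acids are built in the cytosol from acetyl-CoA. ACSS2 makes acetyl-CoA from acetate, FASN (fatty acid synthase) assembles palmitate from acetyl-CoA and malonyl-CoA, SCD (stearoyl-CoA desaturase) places the double bond that turns palmitate and stearate into palmitoleate and oleate, and ACSL1 (long-chain acyl-CoA synthetase 1) joins fatty acids to CoA so that they can be stored or oxidised. In pigs adipose tissue is the main site of this synthesis, and fat cells lie between the fibres of the loin, where they give marbling. In muscle fibres ACSL1 is best known for committing fatty acids to mitochondrial oxidation.

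RNA from the longissimus dorsi muscle of 32 pigs aged 6 months was sequenced, with 8 libraries in each group. Pigs of 2 pure breeds were sampled, Landrace (L), which is a lean commercial breed, and Dapulian (DPL), which is indigenous to China. The crosses were Landrace x Dapulian (LDPL) and the 3-breed Duroc x Landrace x Dapulian (DLDPL). All pigs were labelled wild type, with much the same housing and feed for every group. No sex, batch or date is labelled, and only the labels say that the libraries were separate animals, so p-values may measure technical spread.

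Mean depth per group lay between 24612294 and 26590633 reads, and the deepest library held 1.37 times the reads of the shallowest. The 5 skeletal muscle markers with a symbol in the files, of 15 listed, had reads in all 32 libraries, and ACTA1, the skeletal actin, lay between 13030 and 58750 RPKM (reads scaled to gene length in kilobases and to library total). The share of reads from mitochondrially encoded genes was 20.8% ± 2.58 in L and 31.3% ± 5.59 in DPL (SD, n = 8). Replicate numbers of the L libraries form a series of their own, so separate handling of L and the breed itself cannot be told apart. With deposited totals in place of the scaling used here, the median log2 change of all genes was -0.19 for DPL against L, -0.11 for LDPL against L and 0.15 for DLDPL against DPL. The split of called genes then moved from 2455 higher and 2418 lower to 1323 and 3361 for DPL against L, from 1905 and 1888 to 1227 and 1960 for LDPL against L, from 166 and 200 to 196 and 54 for LDPL against DPL, and from 254 and 272 to 481 and 49 for DLDPL against DPL.

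RPKM is scaled to gene length, so the levels of the 4 genes are set side by side as far as the listed lengths hold. Whether the length listed for FASN covers its whole transcript was not checked, so its rank is uncertain. ACSL1 was the highest of the 4 in 32 of 32 libraries, and ACSS2 was above both SCD and FASN in 30 of 32. SCD and FASN were low-level transcripts in most libraries and changed places: SCD was above FASN in 5 of 8 DLDPL, 5 of 8 LDPL, 3 of 8 DPL and 0 of 8 L libraries. The reads behind these levels numbered 4414 to 19431 per library for ACSL1, 708 to 1741 for ACSS2, 65 to 12778 for SCD and 41 to 5670 for FASN. Reads covered at least 99.74% of the listed length of ACSL1, which is 3134 bases, and between 48.14% and 95.87% of the 4381 bases listed for FASN. In bulk muscle, fewer cells of a type and less RNA per cell cannot be told apart.

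**Figure D1:**
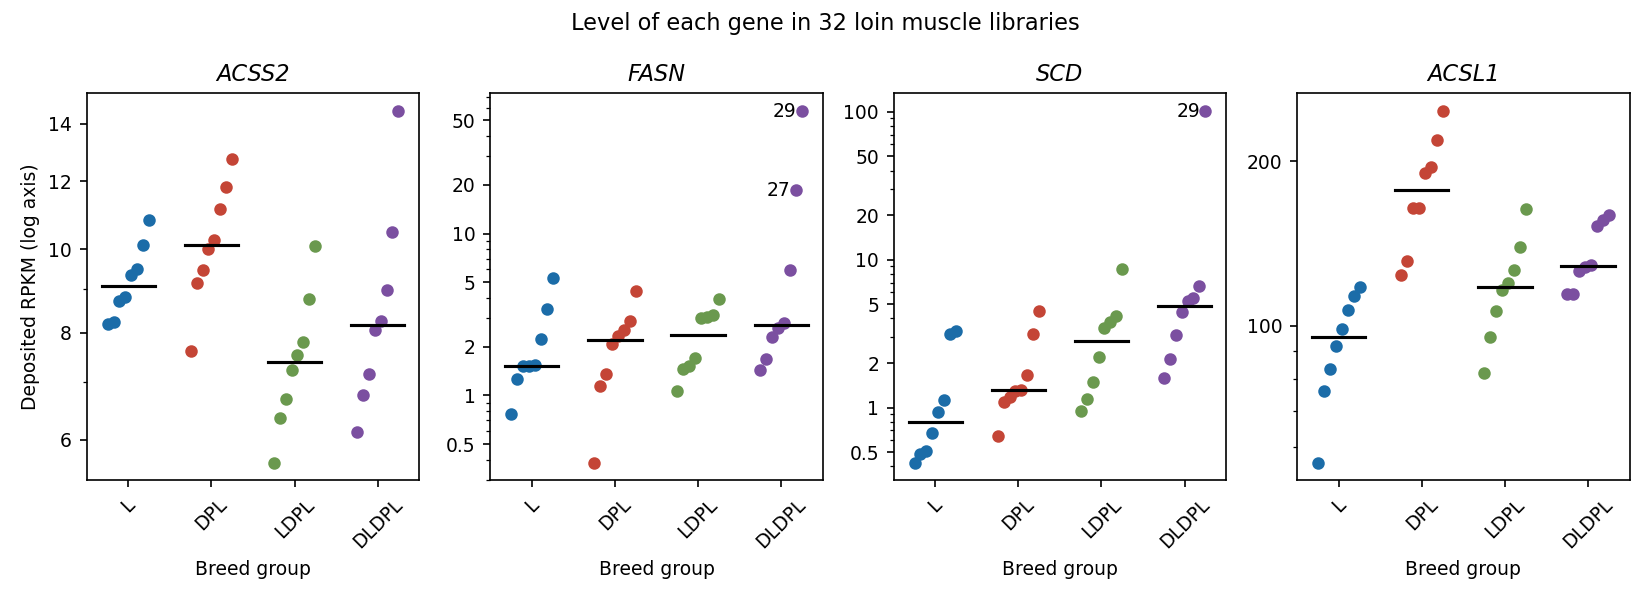
RPKM of ACSS2, FASN, SCD and ACSL1 in each of 32 loin muscle libraries on log axes that differ between genes, by breed group (8 points a group, black line at the median, DLDPL replicates 27 and 29 numbered). ACSL1 separates DPL (lowest 124) from L (highest 118), whereas 1 DLDPL library holds the highest SCD and FASN levels (101 and 57.1).

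ACSS2, the cytosolic acetyl-CoA synthetase, was lowest in the Landrace x Dapulian cross. Its RPKM ran from 8.19 through a median of 9.07 to 10.8 in L, and from 7.62 through 10.1 to 12.8 in DPL. In LDPL it ran from 5.64 through 7.39 to 10.1, and in DLDPL from 6.12 through 8.16 to 14.5, the last in replicate 28. All 4 ranges overlapped, but 6 of 8 LDPL libraries lay below every L library and 5 of 8 lay below every DPL library. Mean ACSS2 levels were 7.52 ± 1.41 RPKM in LDPL, 8.79 ± 2.67 in DLDPL, 9.21 ± 0.919 in L and 10.3 ± 1.62 in DPL (SD, n = 8). In the order DPL, L, DLDPL, LDPL, no neighbouring pair of groups differed by an adjusted p under 0.05.

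Against DPL, ACSS2 was lower in LDPL, with a log2 change of -0.55 ± 0.13 (SE, 95% interval -0.80 to -0.29, adjusted p = 0.0153, edgeR's quasi-likelihood test with Benjamini-Hochberg adjustment over 12821 genes). It was also below the midpoint of its 2 parental breeds, with a change of -0.39 ± 0.11 (-0.62 to -0.17, adjusted p = 0.0245). Against L the difference was -0.24 ± 0.13 (adjusted p = 0.154), with an interval of -0.49 to 0.02. DPL exceeded L by 0.31 ± 0.13 at an adjusted p of 0.05003, just outside the threshold of 0.05. Leaving out 1 of 12 libraries brought that value under it, with adjusted p-values between 0.0341 and 0.107 over the 32 such fits; the 12 were L replicates 4 and 7, DPL replicates 7, 11 and 23, LDPL replicates 8, 9 and 10, and DLDPL replicates 20, 25, 28 and 32.

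The LDPL calls of ACSS2 depended on scaling. With deposited totals the difference from DPL was -0.45 (adjusted p = 0.0788) and that from the midpoint -0.37 (adjusted p = 0.0761), while the all-gene median of LDPL against DPL moved to 0.10. The midpoint call was also lost without LDPL replicate 10, 14 or 15, with an adjusted p of up to 0.0616 over the 32 fits that each left out 1 library. DLDPL differed from DPL by -0.37 ± 0.13 (adjusted p = 0.0836), and this passed the threshold without DLDPL replicate 20 or 28 (lowest adjusted p 0.0275).

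FASN, which builds palmitate, had group medians between 1.53 and 2.71 RPKM, and its highest levels lay in 2 DLDPL libraries. Its RPKM ran from 0.773 through a median of 1.53 to 5.30 in L, and from 0.384 through 2.20 to 4.41 in DPL. In LDPL it ran from 1.06 through 2.35 to 3.93, and in DLDPL from 1.44 through 2.71 to 57.1. The 2 highest of the 32 libraries were DLDPL replicate 29 at 57.1 and DLDPL replicate 27 at 18.55, while the other 6 DLDPL libraries lay between 1.44 and 5.97. The mean of 11.6 ± 19.3 RPKM in DLDPL (SD, n = 8) became 2.80 ± 1.64 over those 6, beside 2.35 ± 1.04 in LDPL, 2.14 ± 1.23 in DPL and 2.19 ± 1.48 in L.

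DLDPL exceeded L in FASN by a log2 change of 2.28 ± 0.56 (SE, 95% interval 1.15 to 3.41, adjusted p = 0.00325, edgeR) and DPL by 2.13 ± 0.55 (1.01 to 3.26, adjusted p = 0.0232). Without replicate 29 the difference from L was 1.21 (adjusted p = 0.0467) and that from DPL 1.08 (adjusted p = 0.174). Without replicates 27 and 29, which were chosen after their levels had been seen, these became 0.42 (adjusted p = 0.461) and 0.28 (adjusted p = 0.753). By limma on log2(RPKM + 1) neither difference passed, at 1.08 (adjusted p = 0.0801) and 1.10 (adjusted p = 0.143). Among L, DPL and LDPL the FASN differences lay between 0.07 and 0.22, with adjusted p-values from 0.796 to 0.967. The interval of DPL against L was -0.95 to 1.25. In the order of medians L, DPL, LDPL, DLDPL, no neighbouring pair of groups differed in FASN by an adjusted p under 0.05.

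SCD, the desaturase, had its lowest median in L and its highest in DLDPL. Its RPKM ran from 0.424 through a median of 0.803 to 3.32 in L, and from 0.641 through 1.31 to 4.47 in DPL. In LDPL it ran from 0.95 through 2.83 to 8.58, and in DLDPL from 1.58 through 4.83 to 100.9. Every pair of groups overlapped, yet 5 of 8 DLDPL and 4 of 8 LDPL libraries lay above every L library. The DLDPL mean of 16.2 ± 34.3 (SD, n = 8) rests on replicate 29; the other 7 gave 4.09 ± 1.87, beside 3.22 ± 2.50 in LDPL, 1.85 ± 1.29 in DPL and 1.32 ± 1.20 in L.

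SCD was higher in DLDPL than in L by a log2 change of 3.52 ± 0.69 (SE, 95% interval 2.12 to 4.92, adjusted p = 0.000376, edgeR). Without DLDPL replicate 29 the difference fell to 1.76, and the adjusted p was at most 0.00607 over the 32 fits that each left out 1 library, so this call held. Without replicates 27 and 29 it was called as well, and over the 11 other settings the log2 change was between 1.70 and 3.61. DLDPL against DPL gave 2.77 ± 0.67 (adjusted p = 0.0145), but 1.02 without replicate 29 (adjusted p = 0.213). DESeq2, which replaced 1 SCD count as an outlier, gave 0.94 (adjusted p = 0.214) for that pair.

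LDPL lay above L in SCD by 1.46 ± 0.65 (0.15 to 2.78, adjusted p = 0.0855, edgeR), which did not pass. It passed without DLDPL replicate 29 (1.45, adjusted p = 0.0135) and without L replicate 5 (1.78, adjusted p = 0.0470). DPL against L gave 0.75 ± 0.64 (adjusted p = 0.372) with an interval of -0.56 to 2.06. The SCD medians had the same order of groups as those of FASN, and again no neighbouring pair passed the test.

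ACSL1, the acyl-CoA synthetase, was highest in the Dapulian pigs. Its RPKM ran from 56.2 through a median of 95.3 to 118.0 in L, and from 124 through 177 to 247 in DPL. In LDPL it ran from 82.2 through 118 to 164, and in DLDPL from 114 through 129 to 160. All 8 DPL libraries lay above all 8 L libraries, the only pair of groups without overlap for any of the 4 genes. The crosses lay between the 2 breeds and overlapped both. The share of all tested genes without overlap between DPL and L was not counted, and 38.0% of them were called in that comparison. Mean ACSL1 levels were 179 ± 42.0 RPKM in DPL, 135 ± 18.4 in DLDPL, 119 ± 25.5 in LDPL and 93.0 ± 20.7 in L (SD, n = 8); in this order the first and the last neighbouring pairs passed the test and the middle one did not.

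DPL exceeded L in ACSL1 2.16-fold, a log2 change of 1.11 ± 0.16 (SE, 95% interval 0.79 to 1.43, adjusted p = 1.36e-06, edgeR). The change was between 0.94 and 1.13 over 11 other settings and between 1.04 and 1.18 over the 32 fits without 1 library, and it was called in all of them. With the mitochondrially encoded genes left out, and the same kind of scaling, it was 1.12. The part of the higher mitochondrial share of reads in DPL, given above, was not tested. LDPL was lower than DPL, with a change of -0.70 ± 0.16 (-1.02 to -0.38, adjusted p = 0.0127). From the midpoint of the parental breeds LDPL differed by -0.14 ± 0.14 (-0.42 to 0.13, adjusted p = 0.576).

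Both crosses exceeded L in ACSL1. DLDPL did so by 0.58 ± 0.16 (0.26 to 0.90, adjusted p = 0.00686, edgeR), and 6 of 8 of its libraries lay above every L library. LDPL did so by 0.41 ± 0.16 (adjusted p = 0.0417), a call lost with deposited totals (0.35, adjusted p = 0.0803) and without any 1 of L replicates 1, 2, 5, 8, 9 and 10 or LDPL replicates 4, 5, 14 and 15 (highest adjusted p 0.0933). DLDPL was lower than DPL, with a change of -0.53 ± 0.16 (adjusted p = 0.0439). That call was lost with deposited totals (-0.41, adjusted p = 0.105) and in 13 of the 32 fits without 1 library (highest adjusted p 0.101): L replicate 5, LDPL replicate 8, DPL replicates 7, 19, 21, 23 and 26, and DLDPL replicates 6, 18, 20, 27, 28 and 29.

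**Figure D2:**
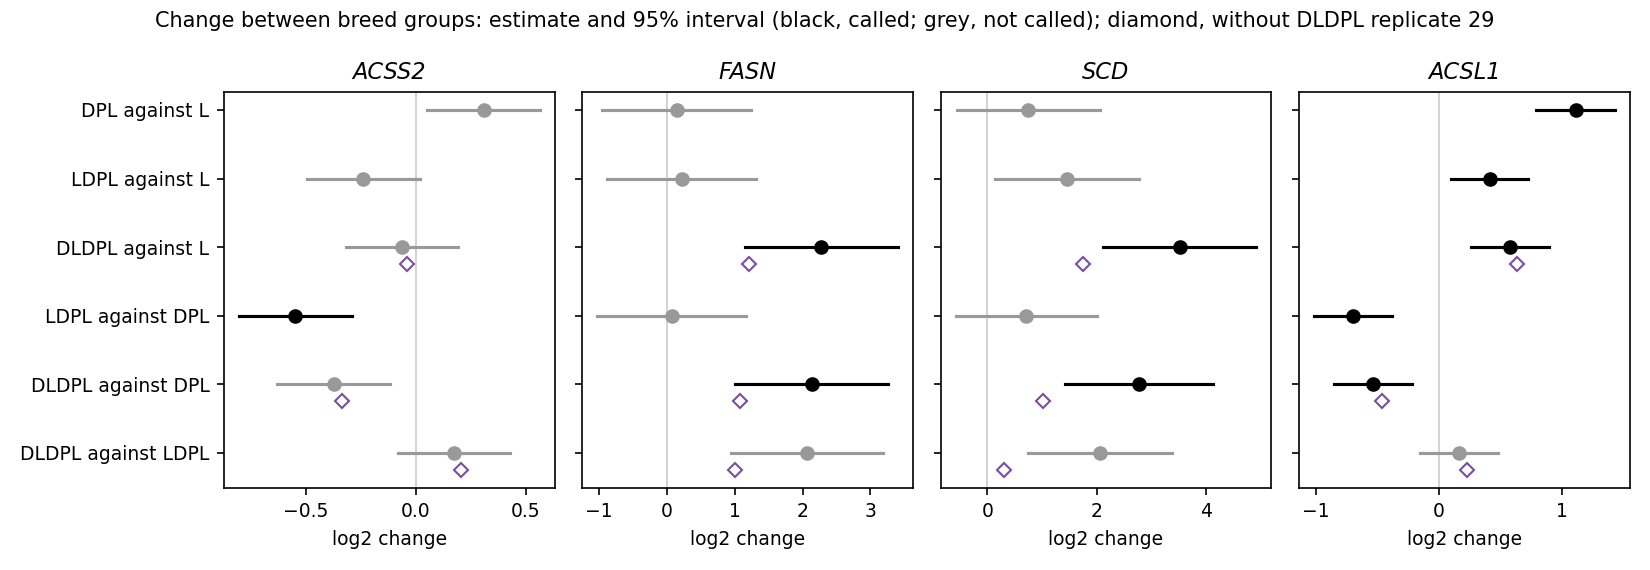
log2 change of each gene in the 6 pairs of breed groups (points) with 95% intervals (lines), black where the adjusted p was under 0.05 and grey elsewhere; diamonds give the change without DLDPL replicate 29, and the x axes differ between genes. SCD against L moves from 3.52 to 1.76 and FASN against L from 2.28 to 1.21 without that library.

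Counted by comparison, and read beside the share of all 12821 genes that edgeR called, the 4 genes were called as follows. For DPL against L, 1 of 4 was higher and 0 lower, where 38.0% of all genes were called (19.1% higher, 18.9% lower). For LDPL against L, 1 of 4 was higher, where 29.6% were called (14.9% higher, 14.7% lower). For DLDPL against L, 3 of 4 were higher, where 21.9% were called (11.6% higher, 10.3% lower), and without DLDPL replicates 27 and 29 SCD and ACSL1 remained called. In comparisons with L calls were common across the transcriptome, and a single called gene of 4 is close to that background.

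Between groups other than L, calls were rarer. For LDPL against DPL, 2 of 4 were lower, ACSS2 and ACSL1, where 2.85% of all genes were called (1.29% higher, 1.56% lower). For DLDPL against DPL, 2 of 4 were higher and 1 lower, where 4.1% were called (1.98% higher, 2.12% lower), and all 3 of these calls were lost without DLDPL replicate 29. Without that library the log2 change of SCD went from 2.77 to 1.02 (adjusted p = 0.213, edgeR) and that of FASN from 2.13 to 1.08 (adjusted p = 0.174). ACSL1 moved little, from -0.53 to -0.47 (adjusted p = 0.0980, edgeR). For LDPL against the parental midpoint, ACSS2 alone was called, where 8.12% of all genes were called (5.13% higher, 2.99% lower).

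DLDPL against LDPL gave no call for any of the 4 genes, and edgeR called 0.0% of all genes. At an unadjusted p under 0.05 there were 969 genes, DESeq2 called 33 and limma on log2(RPKM + 1) called 0. The log2 changes were 2.06 ± 0.65 for SCD (adjusted p = 0.326), 2.06 ± 0.55 for FASN (adjusted p = 0.191), 0.17 ± 0.13 for ACSS2 (adjusted p = 0.810) and 0.17 ± 0.16 for ACSL1 (adjusted p = 0.872). Without DLDPL replicate 29 the SCD difference was 0.30 and the FASN difference 1.0. Comparisons with the same reference group share its libraries and are not independent.

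SCD and FASN varied far more between pigs of 1 breed than ACSS2 and ACSL1. The within-group SD of log2 CPM (counts scaled to library size, prior count 2) was 1.21 for SCD and 1.10 for FASN, above 98.7% and 98.0% of all tested genes. Without DLDPL replicate 29 these were 0.94 and 0.888, still above 95.8% and 94.8%. ACSS2 had an SD of 0.248 and ACSL1 of 0.325, both below the median of 0.361 over all genes. Among genes within 0.5 of their own mean log2 CPM the median SD was 0.239 for ACSS2 and 0.268 for ACSL1. Of those genes of like level 55.6% had a smaller SD than ACSS2, which is near the middle, and 72.1% a smaller SD than ACSL1.

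DLDPL replicate 29 was high in SCD, FASN and several genes that supply the pathway. Its SCD level of 100.9 RPKM was 11.8 times the highest of the other 31 libraries, and its FASN level of 57.1 was 3.08 times. Against the median of the 6 DLDPL libraries other than 27 and 29, SCD was 26.9-fold and FASN 23.3-fold higher, whereas ACSS2 was 1.18-fold and ACSL1 0.812-fold of it. Enzymes that feed fatty acid synthesis were also high there. ACLY, which makes acetyl-CoA from citrate, was 2.57-fold higher at 4.73 RPKM. PGD, an NADPH-forming enzyme of the pentose phosphate pathway, was 3.87-fold higher. These folds are in RPKM, and this library had the lowest mitochondrial share of reads of all 32, 14.8%. In CPM, against the median of the other 7 DLDPL libraries, the folds were 18.5 for SCD, 17.4 for FASN, 1.94 for ACLY and 2.6 for PGD. In CPM 5 of 10 acetyl-CoA and NADPH supply genes other than ACSS2 had their highest level of all 32 libraries in this one. These were ACLY, PGD, IDH1, TKT and TALDO1. The same held for 2.17% of all tested genes.

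SCD differed far more between that library and DLDPL replicate 27 than the fat cell genes named here did. PLIN1, the coat protein of fat cell lipid droplets, was at 34.3 RPKM in replicate 29 and 30.7 in replicate 27, a ratio of 1.12, while SCD was at 100.9 and 5.51, a ratio of 18.3. FASN differed 3.08-fold between these libraries, and ACACA, which makes malonyl-CoA for FASN, was at 1.5 in replicate 29 and 1.82 in replicate 27. PPARG, the fat cell transcription factor, was lower in replicate 29 (6.50) than in replicate 27 (12.5). So was PCK1, near the floor (0.0681 and 0.164). Other fat cell genes were higher in replicate 29: CIDEC was at 18.2 against 14.8, TRARG1 at 12.2 against 9.27, CEBPA at 4.89 against 3.26 and CFD at 96.9 against 62.4. In CPM 4 of the 11 adipocyte markers had their highest level of all 32 libraries in replicate 29 (CIDEC, CEBPA, TRARG1 and LGALS12). In RPKM, PLIN1 was also highest of the 32 there. L replicate 2 also had a high PLIN1 level, 21.1, with 3.32 for SCD and 3.42 for FASN.

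**Figure D3:**
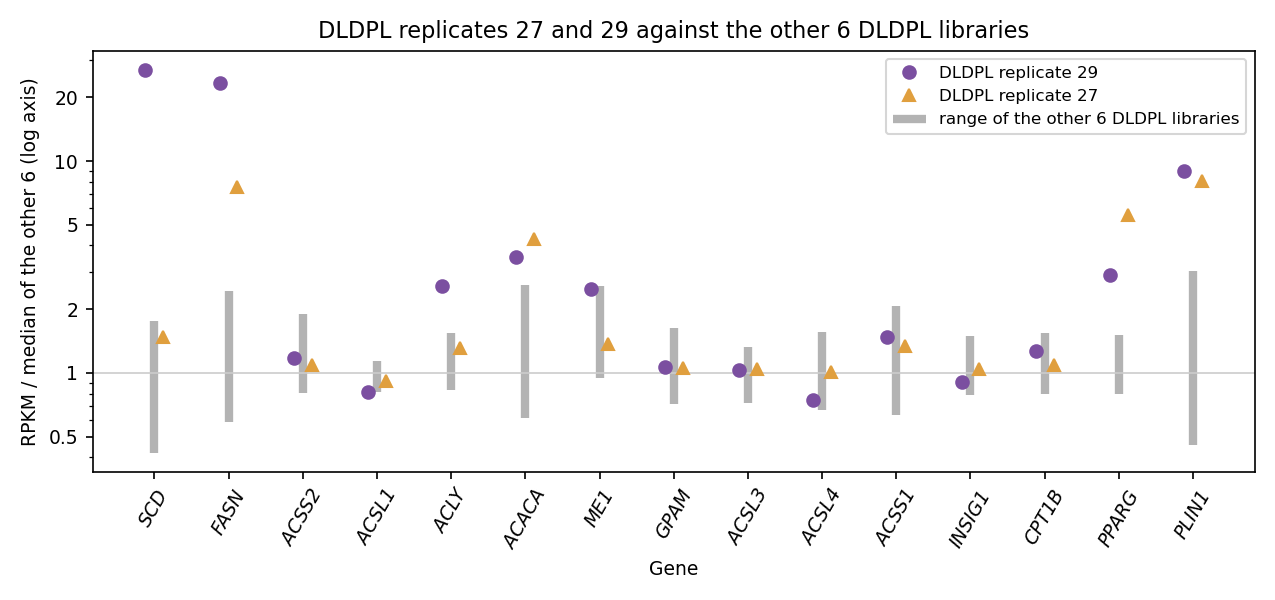
RPKM in DLDPL replicates 29 (circles) and 27 (triangles) divided by the median of the other 6 DLDPL libraries, with the range of those 6 as grey bars, on a log axis, for 15 genes of fatty acid synthesis and fat storage. Both libraries stand about alike for PLIN1 (9.00 and 8.04) and apart for SCD (26.9 and 1.47).

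Across pigs of the same breed, SCD and FASN levels rose and fell with fat cell markers, and no such relation passed the test for ACSS2 or ACSL1. An adipocyte score was taken as the mean of 11 tested markers in log2 CPM, with each gene centred within its group. FASN correlated with it at Pearson r = 0.70 (permutation p = 1e-05, the smallest that 100000 permutations within groups can give; adjusted p = 4e-05 over 4 relations; n = 32) and Spearman rho = 0.753 (adjusted p = 8e-05). SCD did so at r = 0.627 (permutation p = 0.0002, adjusted p = 0.0004) and rho = 0.663 (adjusted p = 0.00034). Without the 2 libraries farthest from the median score, L replicates 2 and 10, r was 0.796 for FASN and 0.623 for SCD. Within single groups r was 0.533 to 0.943 for FASN and 0.478 to 0.746 for SCD.

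For ACSS2 r was -0.05 and for ACSL1 -0.0089 (permutation, both adjusted p = 0.964). Of the 20 adipocyte markers listed, 12 had a symbol in the files; ADIPOQ, LEP and FABP4 did not and are not analysed here. Among the 12, RETN was at 0 in 27 of 32 libraries, PCK1 and LGALS12 in 7 and TRARG1 in 1, while GPD1, PLIN4, CFD and LIPE were above 4 RPKM in every library. The summed RPKM of the 8 others ran from 2.11 to 13.7 in LDPL, 3.25 to 25.5 in DPL, 1.09 to 47.2 in L and 6.38 to 78.7 in DLDPL. The part of fat cell content in the SCD and FASN differences between breeds was not tested.

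**Figure D4:**
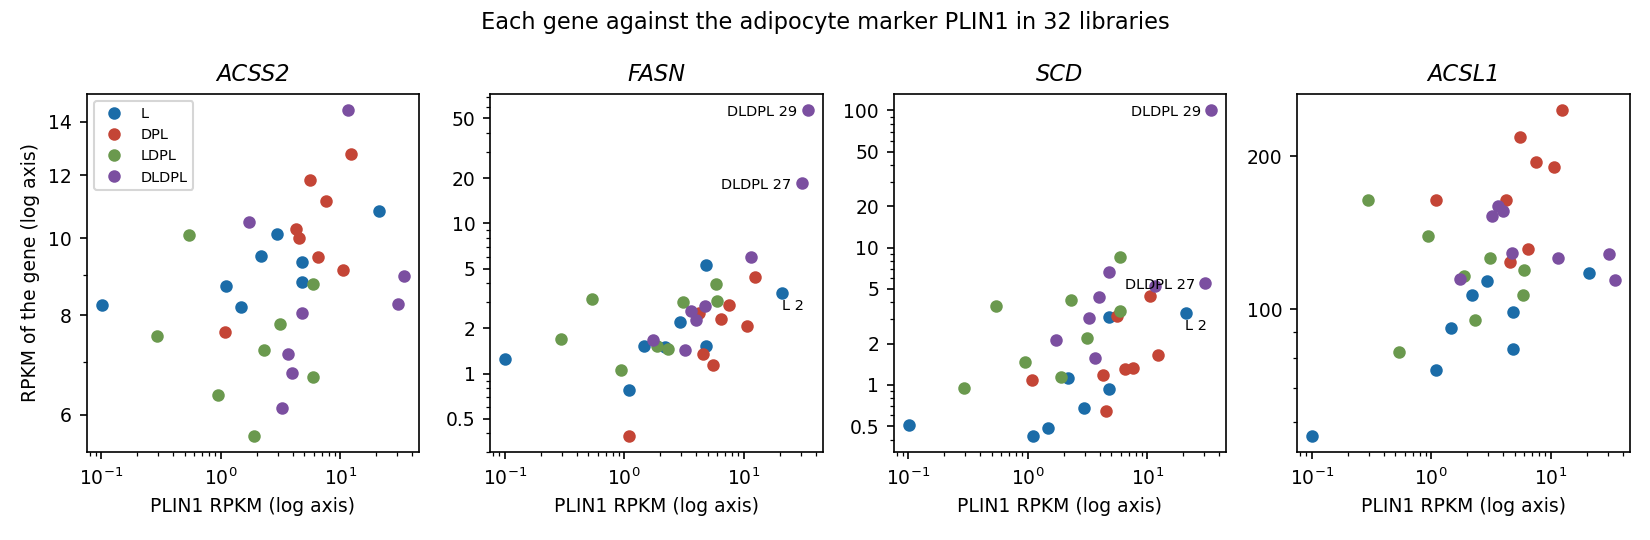
RPKM of ACSS2, FASN, SCD and ACSL1 (y, log axes that differ between genes) against RPKM of the fat cell marker PLIN1 (x, log axis) in 32 libraries coloured by breed group, with DLDPL replicates 27 and 29 and L replicate 2 named for FASN and SCD. FASN and SCD tend to be higher where PLIN1 is, and in DLDPL replicate 29 SCD (101) is far above the library with the nearest PLIN1 level, DLDPL replicate 27 (5.51).

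SCD and FASN were also correlated with each other, and the adjusted call was lost without 1 library. Over 32 libraries the relation was r = 0.658 (permutation p = 0.00075, adjusted p = 0.0045 over 6 pairs) and rho = 0.543 (adjusted p = 0.0134). Without DLDPL replicate 29 it was r = 0.437 (permutation, adjusted p = 0.0797), and without the 2 libraries farthest in SCD, that one and LDPL replicate 8, it was 0.427. By group r was 0.0366 in DPL, 0.685 in LDPL, 0.812 in DLDPL and 0.825 in L. The DLDPL value was 0.372 without replicate 29. The other 5 pairs among the 4 genes had adjusted permutation p-values from 0.258 to 0.999.

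The genes most like each of the 4, by Pearson r of group-centred log2 CPM over 32 libraries among 7574 genes with a symbol and a mean of at least 1 CPM, are given as a description. For FASN these were TRARG1 (0.804), an adipocyte protein of GLUT4 traffic; SOD3 (0.804), the extracellular superoxide dismutase; RETSAT (0.773), a retinol saturase; ACACA (0.76); and ACKR4 (0.75), a chemokine receptor. For SCD they were SDR16C5 (0.724), AGPAT1 (0.695), CYP4B1 (0.678), RETSAT (0.674) and TRARG1 (0.661), so 2 of the 5 were shared with FASN. Without DLDPL replicate 29, AGPAT1 fell to 0.505, RETSAT to 0.543 and TRARG1 to 0.599 for SCD, and SDR16C5 stayed at 0.72. The 5 genes most like SCD and the 5 most like FASN then had no gene in common. For ACSS2 they were DPP9 (0.767), VPS11 (0.719), MLXIP (0.719), a glucose-sensing transcription factor, OGDH (0.702), a subunit of the 2-oxoglutarate dehydrogenase of the citric acid cycle, and ATG9A (0.685). For ACSL1 they were TP53INP2 (0.764), SLC25A12 (0.678), the mitochondrial aspartate-glutamate carrier, AKR7A2 (0.637), CYB5R1 (0.629) and USP11 (0.629).

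Genes of the earlier steps of the pathway were called at shares no higher than those of all genes, which were 38.0% in DPL, 29.6% in LDPL and 21.9% in DLDPL against L. Of the acetyl-CoA and NADPH supply genes, 2 of 10 were higher in DPL than in L (MDH1 by 1.0 and TALDO1 by 0.36 on the log2 scale), 0 of 10 were called in LDPL against L, and 2 of 10 were higher in DLDPL than in L (TKT by 0.86 and TALDO1 by 0.30), a share near that of all genes. TALDO1 lost the last call without DLDPL replicate 29. ACLY was called in none of these, with log2 changes of 0.39 (adjusted p = 0.143, edgeR), 0.24 (adjusted p = 0.418) and 0.29 (adjusted p = 0.338). Of 2 palmitate synthesis genes besides FASN, 0 were called; ACACA changed by 0.35 (adjusted p = 0.284) in DPL and by 0.41 (adjusted p = 0.255) in DLDPL against L.

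Of the desaturases and elongases other than SCD, 5 of 8 were lower in DPL than in L and 0 higher, where 38.0% of all genes were called (18.9% lower), with a list median of -0.54 beside -0.02 over all genes. FADS2, the delta-6 desaturase, changed by -0.86 ± 0.19 (adjusted p = 0.000451, edgeR), ELOVL4 by -1.41 ± 0.41 (adjusted p = 0.00608) and SCD5, the second stearoyl-CoA desaturase, by -0.75 ± 0.25 (adjusted p = 0.0160). HSD17B12 and FADS1 were the other 2. Some of these 5 genes were near the floor. Over the 6 DLDPL libraries other than 27 and 29, median RPKM was 0.089 for ELOVL4, 0.377 for SCD5 and 0.471 for FADS1. It was 3.48 for FADS2 and 26.25 for HSD17B12, and levels in L and DPL are not given here. The 3 not called were ELOVL5, with a change of 0.48 (adjusted p = 0.249, edgeR), HACD3 with -0.17 (adjusted p = 0.208) and FADS3 with -0.0266 (adjusted p = 0.941). The same 5 genes were called lower with deposited totals, by DESeq2 and by limma on log2(RPKM + 1). In LDPL against L 1 of 8 was lower (FADS1), and in DLDPL against L 1 of 8 was lower (ELOVL4).

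Other synthetases gave few calls. Of 11 acyl-CoA and acetyl-CoA synthetases besides ACSL1 and ACSS2, 0 were called in DPL against L; ACSL3 and ACSL4 changed by 0.14 each (adjusted p = 0.575 and 0.613, edgeR) and ACSS1, the mitochondrial acetyl-CoA synthetase, by 0.34 (adjusted p = 0.227). In LDPL against L, ACSS1 was higher by 0.70 (adjusted p = 0.0171) and SLC27A1, a fatty acid transport protein, was lower, with a change of -0.73 (adjusted p = 0.000603). Of the genes of fatty acid entry into mitochondria and oxidation, 13 of 17 were higher in DPL than in L and 0 lower, where 19.1% of all genes were higher, with a list median of 0.44 beside -0.02 over all genes. ETFDH (1.01), HADHB (1.08) and HADHA (0.84), which carry out oxidation or pass on its electrons, had the smallest adjusted p-values of the list, and CPT1B, the carnitine transferase of muscle, was higher by 0.47 (adjusted p = 0.00442). With deposited totals 7 of 17 were higher and 2 lower, DECR1 and CPT1A. The split of all called genes then shifted towards lower, as given above. In LDPL against DPL 5 of 17 were lower and 0 higher, where 1.56% of all genes were lower and 1.29% higher.

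Glycerolipid assembly genes gave 1 of 9 higher (GPAT4) and 1 lower (AGPAT5) in DPL against L, and GPAM, the mitochondrial glycerol-phosphate acyltransferase, changed by 0.06 (adjusted p = 0.830, edgeR). Among 16 lipogenic regulators, 2 were higher in DLDPL than in L: MLXIPL, the carbohydrate-responsive factor, by 1.26 ± 0.27 (adjusted p = 0.000958) and PPARG by 1.32 ± 0.34 (adjusted p = 0.00506). MBTPS1, a protease that activates sterol-response factors, and NR1H3, the liver X receptor alpha, were lower. Without DLDPL replicates 27 and 29 MLXIPL was higher by 1.04 (adjusted p = 0.00774) and PPARG by 0.62 (adjusted p = 0.134). Of 17 cholesterol synthesis genes, 3 were higher and 5 lower in DPL than in L, and 2 were higher and 2 lower in DLDPL than in L. Of all genes, 38.0% were called in DPL and 21.9% in DLDPL against L.

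Some markers of other cell types also differed between the groups, and their part in the results for the 4 genes was not tested. Against L, 19.1% of all genes were higher and 18.9% lower in DPL, 14.9% and 14.7% in LDPL, and 11.6% and 10.3% in DLDPL. The lists are short, and counts near these shares are close to that background. Adipocyte markers gave 3 of 11 higher (PPARG, TRARG1 and CIDEC) and 1 lower (GPD1) in DLDPL against L, with a list median of 0.72, with 2 higher and 0 lower without DLDPL replicate 29 and 0 called either way without DLDPL replicates 27 and 29. In DPL against L 2 of 11 were higher (LIPE and TRARG1) and 2 lower (GPD1 and PLIN4). Preadipocyte and fibroblast markers were lower than in L for 5 of 8 in DPL, 3 of 8 in LDPL (1 of 8 without L replicate 2) and 0 of 8 in DLDPL. Endothelial markers were lower than in L for 2 of 6 in DPL, 3 of 6 in LDPL and 1 of 6 in DLDPL. Nerve and smooth muscle markers were higher than in L for 3 of 7 in DPL, with 1 lower, for 2 of 7 in LDPL and for 3 of 7 in DLDPL, and with deposited totals for 1, 1 and 3 of 7. Of 3 blood markers 1 was called, HBM, a haemoglobin gene, higher in DLDPL than in L by 2.48 on the log2 scale (adjusted p = 0.00446, edgeR), and 0 of 5 macrophage markers were called in any group against L. PLIN1 itself was not called in DLDPL against L (1.37 ± 0.62, adjusted p = 0.112, edgeR).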

How the data were processed

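Loin muscle RNA of 32 pigs was sequenced, 8 per breed group, with a library kit that does not mark strand, per the labels' protocols. Where 2 genes overlap on opposite strands, their reads cannot be separated. Bowtie 0.12.2, Cufflinks and mm8, a mouse build, are named in the submitters' processing notes, while the identifiers are pig Ensembl ones. The pig build and the counting tool were not given in the sources used here. No positions are printed for that reason. The authors deposited, per library and gene, a raw read count, a gene length in bases, a coverage in percent of that length (12 values above 100) and an RPKM value. RPKM recomputed from the deposited counts, lengths and header totals matched the authors' RPKM to within 2.2e-14 of its value. A gene not listed in a library was given a count of 0. Symbols from a reference table matched 60.4% of identifiers. ELOVL6, SREBF1, THRSP, DGAT2 and ACSL5 had none and are not analysed here.

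Genes were kept by filterByExpr (minimum count 10, minimum total 15), scaled by TMM and tested with edgeR 4.0.16 in 1 quasi-likelihood model of the 4 groups over 32 libraries, with Benjamini-Hochberg adjustment over 12821 genes and a threshold of 0.05. Standard errors were derived from the F statistics. The script was tested on simulated data. Alternatives were other scalings and filters, DESeq2 1.42.0, limma 3.58.1 on log2(RPKM + 1) and log2(RPKM + 0.1), fits of the 2 groups compared alone, a replicate block and each library left out. Correlations used 100000 permutations within groups and were two-sided.

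Named genes are the 4 genes, for each of 15 lists and each comparison up to 3 called genes, lowest adjusted p first, 16 fixed partners (11 in the files) and the 5 genes most like each of the 4. Exceptions, chosen after their values were seen, are HSD17B12, FADS1, FADS3, ELOVL5, HACD3, CEBPA, PGD, IDH1, DECR1, CPT1A, PLIN4, RETN, PCK1, LGALS12, CFD and the markers named by library. The genes and lists were chosen with earlier results of these data known, so no count over a list is independent evidence.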

Additional observations from a re-analysis of the deposited data

Results flagged for a closer look

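Each of 60 sets of 8 libraries (the 4 genes and 11 partner genes in 4 groups) was searched for a library far from the rest, meaning that its gap to the nearest other library, divided by the whole range, was above Dixon's 95% critical value. For normally distributed values chance alone sets off about 1 in 20 such groups, and 9 of 60 were found. RPKM was searched without a log. Each library set apart was the highest of its group, and the chance rate for such values was not tested. In DLDPL, replicate 29 stood apart for SCD (gap 0.949 of the range, 101 RPKM beside at most 6.62 in the others), for FASN (0.693, 57.1 beside at most 18.5) and for ACLY (0.594, 4.73 beside at most 2.83). In LDPL, replicate 8 stood apart for SCD (0.579, 8.58 beside at most 4.16) and replicate 5 for ACLY (0.601, 3.58 beside at most 2.39).

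PLIN1 and PPARG, the fat cell markers in this search, set other libraries apart. In DLDPL, PLIN1 was at 34.3 RPKM in replicate 29 and 30.7 in replicate 27. With levels so close, the gap rule could set neither apart. L replicate 2 stood apart for PLIN1 (0.775, 21.1 RPKM beside at most 4.82) and for PPARG (0.617, 4.58 beside at most 2.07), and DLDPL replicate 27 for PPARG (0.558, 12.5 beside at most 6.50). GPAM was highest in DLDPL replicate 32 (0.532, 3.69 beside at most 2.58). ACSS2 and ACSL1 had no such library in any of the 4 groups.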

How the results depend on the processing

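Of 312 results for the 4 genes under other settings, 272 kept their direction and their side of the threshold, 29 lost a call, 8 gained one and 3 changed sign; of 896 with 1 library left out the numbers were 846, 28, 16 and 6. The cause was not tested where none is named. The sign changes were all of FASN differences that had not been called: DPL against L gave -0.0361 with deposited totals, -0.0152 by limma on log2(RPKM + 1) and -0.0564 on log2(RPKM + 0.1), and ranged from -0.0869 (without DPL replicate 21) to 0.46 with 1 library left out. FASN ranged from -0.0884 to 0.31 for LDPL against DPL (below 0 without LDPL replicate 8 or DPL replicate 19, 23 or 30) and from -0.0148 (without LDPL replicate 8) to 0.30 against the midpoint.

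With deposited totals, limma on log2(RPKM + 1) and limma on log2(RPKM + 0.1), in that order, calls were lost for ACSL1 in LDPL against L (0.35, 0.35, 0.36) and DLDPL against DPL (-0.41, -0.38, -0.39), and for ACSS2 in LDPL against DPL (-0.45, -0.41, -0.45) and against the midpoint (-0.37, -0.34, -0.38). The limma tests, in the same order, also lost FASN in DLDPL against L (1.08, 1.32) and against DPL (1.10, 1.37) and SCD in DLDPL against DPL (1.40, 1.77). Fits of the 2 groups alone, with fewer samples, lost SCD (2.79), FASN (2.15) and ACSL1 (-0.53) in DLDPL against DPL, and the unfiltered fit lost ACSL1 there (-0.54). DESeq2 lost SCD there (0.94). ACSS2 in DPL against L gained a call with RLE size factors (0.32), without mitochondrially encoded genes (0.32), by DESeq2 (0.32), in the fit of 2 groups (0.32) and with robust edgeR (0.31). SCD in LDPL against L gained one by DESeq2 (1.48) and in the fit of 2 groups (1.46).

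Robust edgeR and the fits without DLDPL replicates 27 and 29 were chosen after seeing the data. Without those 2 libraries SCD in LDPL against L was called (1.45), and calls were lost for FASN in DLDPL against L (0.42) and, against DPL, for SCD (0.96), FASN (0.28) and ACSL1 (-0.43). With 1 library left out the log2 changes with a changed call ranged from 0.26 to 0.34 (ACSS2, DPL against L), 1.05 to 1.78 (SCD, LDPL against L), 0.34 to 0.48 (ACSL1, LDPL against L), 1.02 to 3.09 (SCD, DLDPL against DPL), 1.08 to 2.36 (FASN, DLDPL against DPL), -0.47 to -0.33 (ACSS2, DLDPL against DPL), -0.60 to -0.46 (ACSL1, DLDPL against DPL) and -0.45 to -0.34 (ACSS2, midpoint).

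Genes called numbered 366 in LDPL against DPL, and 617 by DESeq2, 184 by limma on log2(RPKM + 1), 178 in the fit of 2 groups and 151 to 442 with 1 library left out. In DLDPL against DPL they numbered 526, and 802 by DESeq2, 252 in the fit of 2 groups, 298 without DLDPL replicates 27 and 29 and 312 to 692 with 1 library left out. In DLDPL against LDPL there were 0, and 33 by DESeq2, 2 without a filter, 1 without DLDPL replicates 27 and 29 and 0 to 3 with 1 library left out. Against the midpoint there were 1041, and 541 with deposited totals, 612 and 594 by limma with pseudocounts of 1 and 0.1, and 626 to 1141 with 1 library left out.

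L and LDPL share 5 replicate numbers. Deviations of same-numbered libraries over all tested genes had r between -0.0507 and 0.0913. No range for libraries of different number was computed, so these values cannot decide whether the numbers pair animals. With a replicate block over these 10 libraries 1813 genes were called, and 2176 without the block, beside 3793 over all libraries. ACSL1 was 0.44 with the block (adjusted p = 0.123, edgeR) and 0.44 without it (adjusted p = 0.134), so its call was lost with fewer samples. The relation of SCD and FASN was r = 0.437 without DLDPL replicate 29. Relations to the adipocyte score changed sign where they had not been called: ACSS2 to r = 0.365 on log2(RPKM + 1) and 0.0149 without the L libraries, ACSL1 to r = 0.194 on log2(RPKM + 1), 0.00977 with a score without GPD1, PLIN4, CFD and LIPE (chosen after seeing the data) and 0.0932 without DLDPL replicate 29.

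At 41 to 65 reads, the lowest FASN and SCD levels carry the largest counting error, and their spread between pigs limits what 8 libraries a group can show.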
